A study of Mus musculus with 24 samples.

Results

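Storage and release of fat in adipocytes were followed through 7 genes of the lipid droplet and of lipolysis: Plin2, Plin4, Cidec, Lipe, Mgll, Ces1d and Adig. They were chosen by name, with earlier results of these data known. Every probe set whose only annotated gene symbol was one of the 7 was taken. Among 8252 genes with a symbol of their own, 7 of 7 were on the array, with 9 of its 12488 probe sets. Mgll had 2 probe sets and Ces1d had 2, and 9 of 9 passed the filter on low values, so no member is missing from the tests below. The samples were primary cultures of mouse brown or white fat cells, each hybridised to 1 array. The groups were brown cells at day 7 (n = 5 arrays), brown cells at day 4 (n = 5), white cells at day 7 (n = 6) and white cells at day 4 (n = 8). The labels call day 7 cells differentiated and day 4 cells not differentiated, although the sample titles call the cells of both days adipocytes. The labels give no strain, age, sex or agent for any group. Whether the cells on each array were grown from another animal or in another dish is also not stated, so the p-values speak of array-to-array spread, which could be technical in part or whole.

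Adipocytes store triglyceride in a lipid droplet whose surface is coated by perilipins, and proteins of the CIDE family let droplets grow by moving lipid between them. Stored triglyceride is released in steps: adipose triglyceride lipase (Pnpla2) takes the first fatty acid, hormone-sensitive lipase (Lipe) the next, and monoglyceride lipase (Mgll) the last, leaving glycerol. Catecholamines drive this release through cyclic AMP and protein kinase A. White fat sends the fatty acids to other tissues, and brown fat burns them for heat.

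Values are MAS5 signals, a linear measure of the brightness of a probe set, and differences are in log2 signal with the standard error of the limma fit. A difference passed when its p-value, adjusted over all 8397 probe sets tested, was under 0.05. Signals under 8.21 were set to that value, called the floor here, before log2 was taken. Levels are compared only within a probe set. Arrays are named by the number in their label. All brown array numbers precede the white ones, so handling cannot be told apart from cell type. In bulk RNA, fewer cells of a type and less RNA per cell cannot be told apart.

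The cell type labels held against their markers. Zic1, a brown precursor factor, had signals of 58.4 to 119 on brown arrays and was at the floor on every white array, and Tcf21, a white precursor factor, reached 239 to 471 on white arrays and at most 23.7 on brown ones. Ucp1, the heat-producing uncoupling protein, did not pass the filter with either of its probe sets, and the brighter had signals of 17.4 to 125 at brown day 7 and 4.71 to 42.6 at brown day 4. The adipocyte gene Adipoq had signals of 1169 to 4959 at brown day 4 and 4772 to 6306 at brown day 7. In white cells it had 732 to 3099 at day 4 and 4611 to 6336 at day 7, so it was already present at day 4. Of 6 adipocyte genes tested, 2 were higher at day 7 in brown cells and 3 in white cells, and 0 were lower. Of all probe sets, 12.1% passed in brown cells in either direction and 8.36% were higher in white cells. The ratio of the 3' to the 5' Gapdh probe set, which grows as RNA is degraded, averaged 1.36 ± 0.204 at white day 7 (SD, n = 6) and 0.943 ± 0.0955 at white day 4 (SD, n = 8; exact permutation p = 0.000666, 0.00133 adjusted over 2 tests). In brown cells it averaged 0.889 ± 0.0379 at day 7 and 0.884 ± 0.0825 at day 4 (SD, n = 5 each; exact permutation p = 0.897). Median signals were 42.8 and 41.9 on white day 4 arrays 45 and 51, and 47.7 to 58.9 on the other white arrays. Some results that rest on arrays 45 and 51 are given without them too. The sizes of the white rises of Lipe and Mgll are given only with them. Arrays 45 and 51 held the lowest white day 4 signals of Lipe (272 and 188) and of Mgll by 97511_at (92.4 and 52.1). Over the 7 genes these arrays averaged -0.30 and -0.91 from their group mean in log2 signal. White day 4 array 42 averaged 1.12 and was left out only in the fits that drop single arrays.

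Day 7 cells carried more of most of these transcripts than day 4 cells, in brown and in white cultures. Adig, Lipe, Cidec and Ces1d rose in both, Ces1d in white cells by 101539_f_at only. Plin4 and the brighter Mgll probe set, 97511_at, rose in white cells, while in brown cells their groups did not overlap but missed the threshold. The dim Mgll probe set passed in neither. Plin2 passed in neither. In brown cells 5 of 9 probe sets passed, 5 higher at day 7 and 0 lower, where 12.1% of all probe sets tested passed in either direction. The median difference was 1.10 over the 9 and 0.01 over all. In white cells 6 of 9 were higher and 0 lower, where 8.36% of all were higher and 10.6% lower, and the median was 1.47 against 0.01 over all. By gene that was 4 of 7 in brown cells and 6 of 7 in white cells, with each gene taken by its brightest probe set. Because the genes were chosen with earlier results of these data known, these counts and medians describe the list and do not test it.

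**Figure D1:**
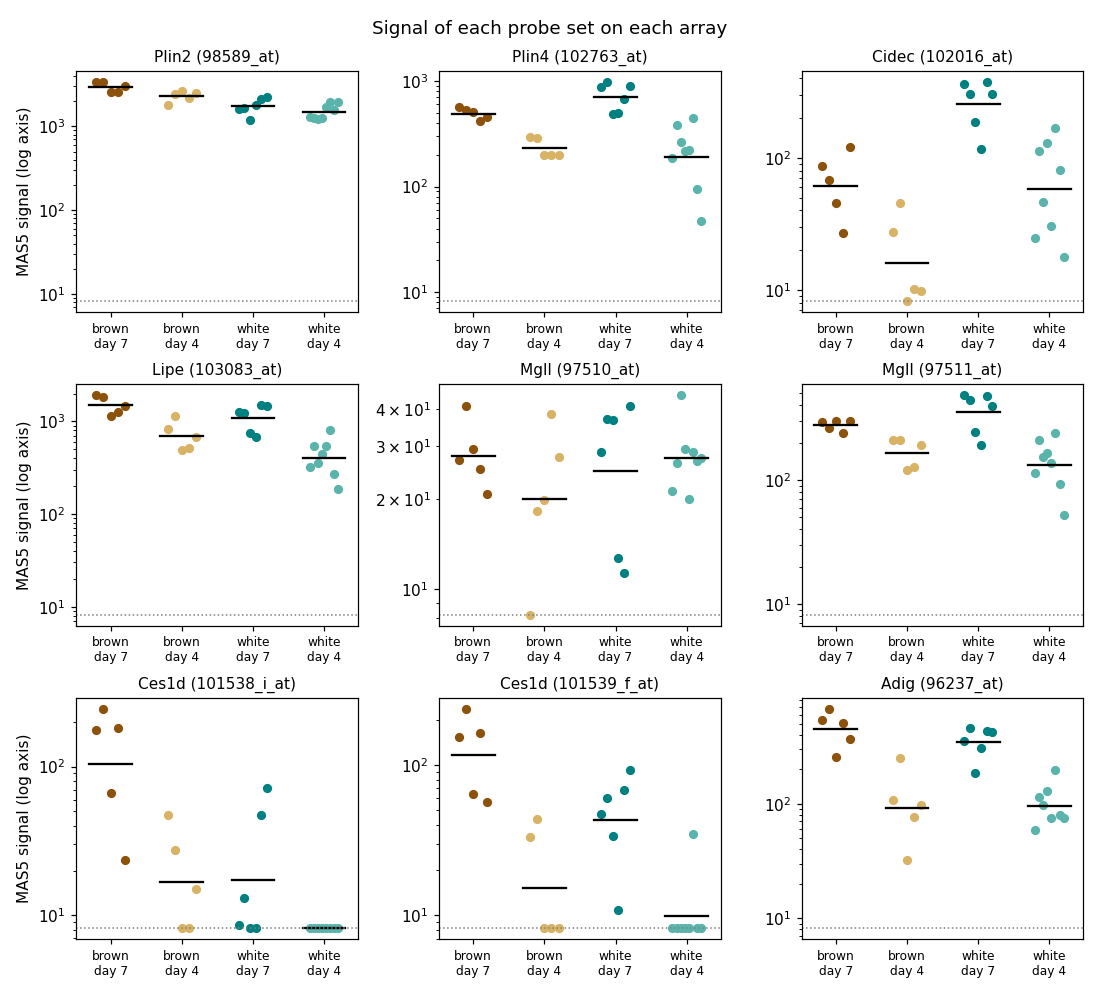
MAS5 signal (log axis, from the floor upwards) of the 9 probe sets on each of the 24 arrays. Points are arrays, bars are the means of log2 signal, and the dotted line is the floor of 8.21. Adig, Lipe and Cidec sit higher at day 7 in both cell types, Plin2 sits higher in brown than in white cells, and the Ces1d probe set 101538_i_at lies at the floor on all 8 white day 4 arrays.

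The droplet coat was represented by Plin2 and Plin4. Plin2 (98589_at), the perilipin found on droplets of most cell types, had signals of 3398, 3418, 2578, 2577 and 3001 at brown day 7, against 1786, 2437, 2679, 2204 and 2511 at brown day 4. In white cells its lowest, median and highest signals were 1196, 1738 and 2253 at day 7 and 1212, 1440 and 1948 at day 4. The days overlapped in both cell types, since brown day 4 array 09 lay above brown day 7 arrays 11 and 12. The difference between days was 0.37 ± 0.17 in brown cells (adjusted p = 0.160) and 0.21 ± 0.14 in white cells (adjusted p = 0.314). The intervals of these differences reached from 1.02-fold to 1.64-fold in brown cells and from 0.948-fold to 1.42-fold in white cells, so differences up to those sizes remain possible.

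Plin4 (102763_at), a perilipin abundant in white fat that coats small new droplets, was further apart between days. Its signals were 564, 529, 506, 415 and 456 at brown day 7, against 294, 289, 201, 199 and 201 at brown day 4. In white cells the lowest, median and highest were 489.8, 784 and 984 at day 7 and 47.4, 219 and 444 at day 4. All day 7 arrays lay above all day 4 arrays in each cell type, a separation that 9.72% of all probe sets showed in brown cells and 4.79% in white cells. Plin4 rose 3.73-fold in white cells (1.90 ± 0.33, adjusted p = 0.000381). In brown cells the difference was 1.08 ± 0.38, which missed the threshold at an adjusted p of 0.0667. White day 4 arrays 45 and 51 held the lowest Plin4 signals, and all groups share one estimate of the spread. Without those arrays the brown difference was the same size with a standard error of 0.22 and an adjusted p of 0.00195, and the white one was 1.39 ± 0.21 (adjusted p = 0.000152).

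Cidec, the fat-specific CIDE protein that enlarges droplets, had one of the wider spreads. Its probe set 102016_at had signals of 87.1, 68.5, 45.3, 26.8 and 121 at brown day 7, against 27.7, 45.3, 1.59, 10.2 and 9.82 at brown day 4, where array 09 lay under the floor. The white lowest, median and highest were 116, 305 and 378 at day 7 and 17.8, 63.6 and 168 at day 4. Day 7 and day 4 overlapped in both cell types, in white cells through day 4 arrays 38 and 42 and day 7 array 40. Cidec rose 3.85-fold in brown cells (1.95 ± 0.56, adjusted p = 0.0219) and 4.42-fold in white cells (2.15 ± 0.48, adjusted p = 0.00297). The brown call was lost when any of day 7 arrays 07, 08 and 22 or day 4 arrays 09, 10 and 19 was left out, with adjusted p up to 0.0732, and also with no filter on low values (adjusted p = 0.0617). The brown difference was 0.98 (adjusted p = 0.178) with the floor at the 40th percentile of all values.

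Of the lipases, Lipe (103083_at), hormone-sensitive lipase, had signals of 1917, 1850, 1147, 1256 and 1450 at brown day 7, against 831, 1131, 493, 523 and 679.7 at brown day 4. In white cells the lowest, median and highest were 677, 1259 and 1506 at day 7 and 188, 397 and 816 at day 4. The brown groups did not overlap, although brown day 4 array 06 came close to day 7 array 11. The white groups overlapped through day 4 array 42. Lipe rose 2.14-fold in brown cells (1.10 ± 0.30, adjusted p = 0.0169) and 2.77-fold in white cells (1.47 ± 0.26, adjusted p = 0.000447). The brown call was lost without day 7 array 07 or 08 or day 4 array 09 or 10, with adjusted p of 0.0507 to 0.0579.

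Mgll, the monoglyceride lipase, was measured by a dim and a brighter probe set. The brighter, 97511_at, had signals of 297, 264, 298, 239 and 297 at brown day 7, against 212, 209, 119.6, 126 and 193 at brown day 4. In white cells its lowest, median and highest were 192, 420.4 and 484 at day 7 and 52.1, 145 and 238 at day 4. The brown groups did not overlap, and the white groups overlapped through day 7 array 40 and day 4 arrays 34 and 42. The transcript rose 2.66-fold in white cells (1.41 ± 0.26, adjusted p = 0.000678). The brown difference of 0.74 ± 0.31 missed the threshold (adjusted p = 0.126) and passed without white day 4 arrays 45 and 51 (adjusted p = 0.0405). The dim probe set, 97510_at, exceeded the 40th percentile on only 10 of 24 arrays. Its differences were 0.49 ± 0.39 in brown cells (adjusted p = 0.474) and -0.14 ± 0.33 in white cells (adjusted p = 0.804), so the probe sets of Mgll disagreed in white cells.

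Ces1d encodes a carboxylesterase that hydrolyses triglyceride in adipocytes. It had the probe sets 101538_i_at and 101539_f_at. The name of 101539_f_at marks sequences shared with related transcripts, and other carboxylesterases may contribute to both probe sets. The signals of 101539_f_at were 154, 238, 63.8, 164 and 56.5 at brown day 7, against 33.2, 43.7, 3.51, 7.62 and 7.00 at brown day 4, where 3 of 5 arrays were under the floor. In white cells the lowest, median and highest were 10.9, 53.9 and 93.5 at day 7. At white day 4, 7 of 8 arrays were under the floor and array 42 read 34.5. The brown groups did not overlap, while white day 4 array 42 lay above day 7 arrays 39 and 40. The probe set rose in brown cells (2.94 ± 0.57, adjusted p = 0.00113) and in white cells (2.14 ± 0.48, adjusted p = 0.00317).

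Those sizes depend on the floor: with the floor at the 40th percentile the 101539_f_at differences were 1.85 in brown cells and 0.79 in white cells, and with no floor they were 3.26 and 3.10. The other Ces1d probe set, 101538_i_at, had signals of 177, 245, 66.6, 183 and 23.4 at brown day 7, against 47.3, 27.7, 2.45, 3.12 and 15.02 at brown day 4, and rose (2.64 ± 0.62, adjusted p = 0.00543) although day 7 array 22 lay below 2 day 4 arrays. At white day 7 its lowest, median and highest were 3.94, 10.8 and 71.7, and all 8 white day 4 arrays were under the floor. At white day 7, 2 of 6 arrays were also under it, so the fitted white difference of 1.06 ± 0.53, which did not pass (adjusted p = 0.166), rests on the floor and was 0.33 with the floor at the 40th percentile.

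Adig encodes adipogenin, a small membrane protein of adipocytes that acts in droplet formation. Probe set 96237_at had signals of 538, 675, 255, 510.4 and 368 at brown day 7, against 108, 252, 32.1, 76.6 and 96.8 at brown day 4. The white lowest, median and highest were 186, 390.0 and 456 at day 7 and 58.5, 88.6 and 196 at day 4. The brown groups just failed to overlap, with day 7 array 11 next to day 4 array 06, and the white groups overlapped by day 4 array 42 alone. Adig rose 4.85-fold in brown cells (2.28 ± 0.38, adjusted p = 0.000337) and 3.57-fold in white cells (1.84 ± 0.33, adjusted p = 0.000461).

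The rises in white cells came with the higher Gapdh ratio of the white day 7 arrays. With that ratio as a covariate, 0 of 9 probe sets passed in white cells. The 6 differences were then 1.28 for Plin4 (adjusted p = 0.315), 1.999 for Cidec (0.302), 1.06 for Lipe (0.296), 0.71 for Mgll (0.525), 1.84 for Ces1d (0.361) and 1.89 for Adig (0.126). In the same fit 37 probe sets passed in all, against 1595 without the covariate. White day 7 ratios of 1.09 to 1.54 overlapped white day 4 ratios of 0.841 to 1.10 by 1 array on each side. In white cells that fit can therefore hardly tell the ratio from day, and no conclusion is drawn from the lost calls. In brown cells the ratio averaged 0.889 at day 7 and 0.884 at day 4, and all 5 calls held with the covariate. The part of RNA quality in the rises was not tested further.

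Some markers of other cell types also passed between days. Of all probe sets 12.1% passed in brown cells in either direction, and in white cells 8.36% were higher and 10.6% lower. The summed signals of macrophage and of endothelial markers overlapped between days in both cell types. Macrophage markers had summed signals of 740 to 1085 at brown day 7 and 660 to 787 at brown day 4, and of 1004 to 1674 at white day 7 and 757 to 2153 at white day 4. Cd14 gave much of these sums, with 358 to 435 at brown day 7 and 264 to 346 at brown day 4. In white cells it had 532 to 768 at day 7 and 382 to 863 at day 4, so the sums say little of dim markers. Of 12 tested markers, 1 was higher at day 7 in brown cells (Lyz2, 2.21) and 2 in white cells (Lyz2, 2.24, and C1qa, 1.27). The defining markers Adgre1, Ptprc and Itgam did not pass the filter. Striated muscle markers summed to 848 to 1277 at brown day 7 and 1354 to 2614 at brown day 4, with 3 of 8 lower at day 7, and to 697 to 1197 at white day 7 and 553 to 1003 at white day 4, with 2 of 8 higher. Endothelial markers summed to 1404 to 1968 at brown day 7 and 1583 to 2862 at brown day 4, and to 1398 to 1848 at white day 7 and 1336 to 1976 at white day 4. Of 7 tested, 1 was higher (Tie1, 0.95) and 1 lower (Eng, -0.66) at day 7 in brown cells, and 1 was higher in white cells (Flt1, 1.38). Their part in the results was not tested.

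**Figure D2:**
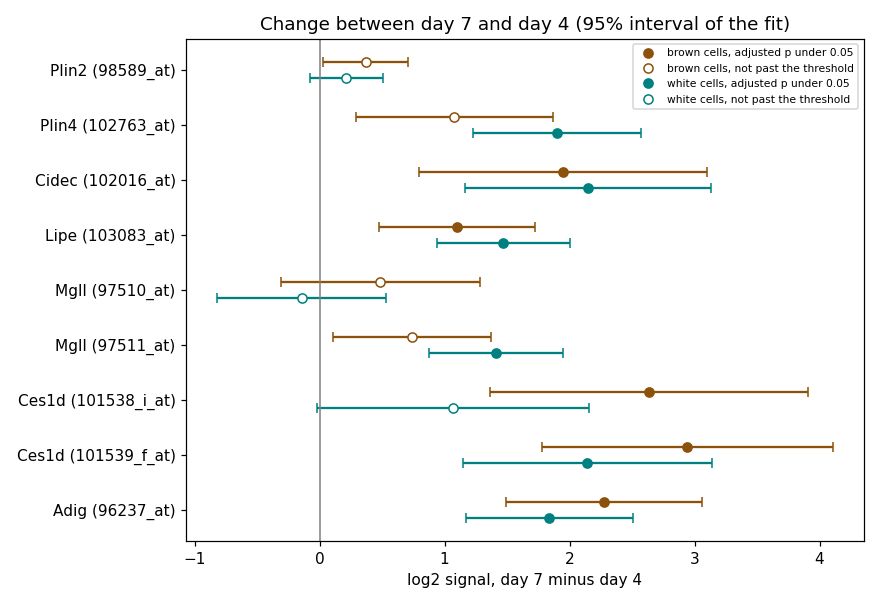
Difference between day 7 and day 4 in log2 signal for the 9 probe sets, in brown cells and in white cells, with 95% intervals of the limma fit. Filled points passed an adjusted p of 0.05. Adig, Lipe, Cidec and 101539_f_at of Ces1d are filled in both cell types, and Plin2 and the dim Mgll probe set in neither.

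Promoters were searched because most of the genes moved together between days. PPARgamma, the nuclear receptor that drives adipocyte differentiation, binds with RXR to a direct repeat of AGGTCA spaced by 1 base. RefSeq's table for GRCm38.p6 held the 250 bases before the start of 9 transcripts of 6 of the 7 genes, and none for Ces1d. The windows were searched on both strands for that repeat (AGGTCA, then any base, then AGGTCA) with at most 3 mismatches, and the windows with a match are printed 5' to 3' on the gene's strand, with matches in capitals. Plin2, which did not pass between days, is printed beside the risers because its window also has a match.
Adig chr2:158502362-158502611 (+): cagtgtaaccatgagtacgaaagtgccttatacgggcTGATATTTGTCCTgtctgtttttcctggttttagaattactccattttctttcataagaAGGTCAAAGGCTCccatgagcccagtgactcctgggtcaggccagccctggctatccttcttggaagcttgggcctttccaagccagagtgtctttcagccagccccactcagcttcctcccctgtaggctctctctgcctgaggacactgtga
Cidec chr6:113435761-113436010 (-): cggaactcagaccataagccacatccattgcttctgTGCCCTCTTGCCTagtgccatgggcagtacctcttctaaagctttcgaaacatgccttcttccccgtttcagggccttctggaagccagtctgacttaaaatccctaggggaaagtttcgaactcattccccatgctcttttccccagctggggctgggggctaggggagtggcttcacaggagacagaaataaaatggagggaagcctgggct
Lipe chr7:25390113-25390362 (-): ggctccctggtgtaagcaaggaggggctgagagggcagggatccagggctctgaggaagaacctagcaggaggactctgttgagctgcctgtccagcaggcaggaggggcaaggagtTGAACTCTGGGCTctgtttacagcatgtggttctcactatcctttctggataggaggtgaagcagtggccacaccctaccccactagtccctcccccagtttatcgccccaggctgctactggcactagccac
Plin2 chr4:86670060-86670309 (-): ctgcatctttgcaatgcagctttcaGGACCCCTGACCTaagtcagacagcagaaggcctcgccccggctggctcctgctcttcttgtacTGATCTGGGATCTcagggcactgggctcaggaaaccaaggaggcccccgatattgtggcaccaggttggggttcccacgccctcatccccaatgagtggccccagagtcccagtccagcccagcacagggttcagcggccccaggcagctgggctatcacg

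Matches stood in 4 of the 9 windows. The windows of the risers Plin4 and Mgll held none, nor did another window each of Cidec and Lipe, and these are not printed. Adig had matches that began 213 and 154 bases before the start, Cidec 214, Lipe 133 and Plin2 225 and 161. The Plin2 match at 225 had 2 mismatches and the others had 3. Of all 32851 windows of that length in the table, 21.3% held a match with at most 3 mismatches and 3.24% with at most 2. The exact letters AGGTCA, which overlap this motif, stood in the windows of Adig and Plin2 and in 14.0% of all windows. CCAAT stood in those of Plin2 and Plin4, and in 33.8% of all. TATAAA stood in none of the 9, and in 12.4% of all. These are matches of letters, and binding was not measured.

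Brown and white cells differed in 4 of these genes on at least 1 day past the threshold. Plin2 was higher in brown cells on both days, and Cidec was lower in brown cells on both days. Lipe was higher in brown cells at day 4, and 1 probe set of Ces1d at day 7. Of the 9 probe sets, 2 were higher and 1 lower in brown cells at day 7, where 12.8% of all probe sets were higher and 12.3% lower. At day 4, 2 were higher and 1 lower, where 10.8% of all were higher and 12.2% lower. The groups did not overlap for 1 of 9 at day 7, against 18.1% of all probe sets, and for 0 of 9 at day 4, against 7.25%. No test was made of these counts against those shares.

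From the signals above, every brown day 7 array had more Plin2 than every white day 7 array. Plin2 was 1.71-fold higher in brown cells at day 7 (0.77 ± 0.16, adjusted p = 0.000735) and 1.54-fold higher at day 4 (0.62 ± 0.15, adjusted p = 0.00351), where brown array 05 lay below white arrays 42 and 51. Cidec was 4.15-fold lower in brown cells at day 7 (-2.05 ± 0.54, adjusted p = 0.00593) and 3.62-fold lower at day 4 (-1.85 ± 0.51, adjusted p = 0.00902). Single brown arrays still exceeded single white ones on both days. With the floor at the 40th percentile the day 4 difference in Cidec was -0.98 and did not pass (adjusted p = 0.0900).

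Plin4 passed on neither day: the brown minus white difference was -0.54 ± 0.37 at day 7 (adjusted p = 0.309) and 0.28 ± 0.35 at day 4 (adjusted p = 0.606), and the day 4 difference was -0.22 without white arrays 45 and 51. With only the day 7 arrays in the fit the day 7 difference passed (adjusted p = 0.0375).

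Among the lipases, Lipe differed by 0.44 ± 0.29 at day 7 (adjusted p = 0.293) and was 1.75-fold higher in brown cells at day 4 (0.81 ± 0.27, adjusted p = 0.0336). That day 4 call was lost without white arrays 45 and 51 (0.54, adjusted p = 0.112), and also without any single one of brown arrays 05, 06 and 19 or white arrays 33, 37, 45 and 51, with only the compared arrays (adjusted p = 0.0677) and with no filter (0.0764). Mgll did not pass on either day with either probe set; for 97511_at the difference was -0.34 ± 0.29 at day 7 (adjusted p = 0.438) and 0.33 ± 0.28 at day 4 (adjusted p = 0.425). Ces1d was higher in brown cells at day 7 by 101538_i_at (2.60 ± 0.59, adjusted p = 0.00195), with 4 of the 5 brown arrays at 66.6 or above and 5 of the 6 white arrays at 47.0 or below. By 101539_f_at the day 7 difference was 1.43 ± 0.54 and missed the threshold (adjusted p = 0.0540). At day 4, where 2 of 5 brown and 8 of 8 white arrays were under the floor, 101538_i_at differed by 1.03 ± 0.56 and did not pass (adjusted p = 0.198), and by 0.14 with the floor at the 40th percentile. On that day 101539_f_at differed by 0.63 ± 0.51 (adjusted p = 0.412).

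Adig passed on neither day, at 0.37 ± 0.37 at day 7 (adjusted p = 0.505) and -0.07 ± 0.34 at day 4 (adjusted p = 0.916). Its 95% interval at day 7 still reached from 0.768-fold to 2.17-fold. With the Gapdh ratio as a covariate, none of the 3 day 7 calls between cell types was kept: Plin2 was at 0.44 (adjusted p = 0.446), Cidec at -1.89 (0.325) and 101538_i_at of Ces1d at 2.60 (0.188). The day 7 ratios were 0.854 to 0.942 on brown arrays and 1.09 to 1.54 on white arrays, without overlap. At day 7 that fit can therefore hardly tell the ratio from cell type, and no conclusion is drawn from the lost calls. Of the 12 macrophage markers tested, 6 were lower in brown cells at day 7 and 3 at day 4. Of the 8 muscle markers, 2 were higher and 1 lower in brown cells at day 7 and 6 were higher at day 4. Of the 7 endothelial markers, 3 were higher and 1 lower at day 7 and 3 were higher at day 4. Of all probe sets, 12.8% were higher and 12.3% lower in brown cells at day 7, and 10.8% and 12.2% at day 4. The part of these markers in the differences was not tested.

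**Figure D3:**
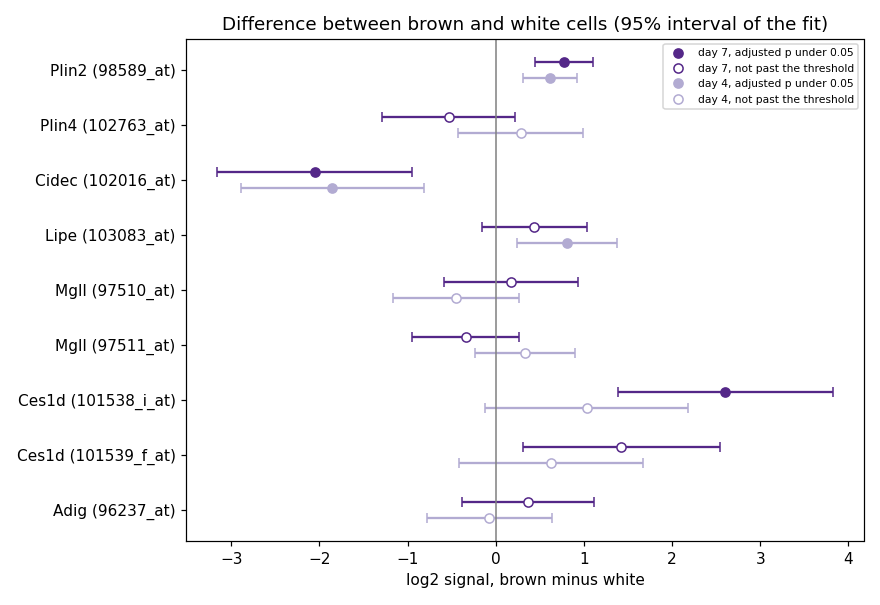
Brown minus white difference in log2 signal at day 7 and at day 4 for the 9 probe sets, with 95% intervals of the limma fit. Filled points passed an adjusted p of 0.05. Plin2 lies right of 0 and Cidec left of 0 on both days, and the intervals of Plin4, Adig and both Mgll probe sets cross 0.

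The order of the 4 group means thus differed between genes. For Plin2 both brown groups lay above both white ones, day 7 first in each, and the ranges of brown day 4 and white day 7 overlapped. For Lipe both day 7 groups lay above both day 4 ones, brown first on each day, where brown and white day 7 did not differ beyond their spread. For Plin4 and Mgll (97511_at) white day 7 led, then came brown day 7, brown day 4 and white day 4, with no tested neighbouring pair past the threshold. For Cidec, white day 7 came first, brown day 7 (mean 5.94 in log2 signal) and white day 4 (mean 5.85) were close, and brown day 4 came last. Ces1d (101539_f_at) had the same order as Lipe, and Adig did too except that its day 4 means, 6.52 in brown and 6.59 in white cells, were close and in the other order.

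The change between days was also set against itself across cell types. No probe set of the 9 had a change that differed between brown and white cells past the threshold, where 0.214% of all probe sets did. At an unadjusted p under 0.05, 670 of all probe sets passed. The change in brown minus that in white cells was -0.82 for Plin4 (95% interval -1.86 to 0.22, adjusted p = 0.752), -0.67 for Mgll by 97511_at (-1.51 to 0.16, 0.739) and 1.57 for Ces1d by 101538_i_at (-0.10 to 3.25, 0.670). For Adig it was 0.44 (-0.59 to 1.47, adjusted p = 0.899), for Lipe -0.37 (-1.19 to 0.45, 0.890), for Cidec -0.20 (-1.72 to 1.32, 0.975) and for Plin2 0.15 (-0.29 to 0.60, 0.922). The intervals are wide, widest for Cidec and Ces1d, so the rises cannot be called equal.

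Within a group the genes tended to stand high or low on the same arrays. White day 4 array 42 had the highest signal of its group for 7 of 7 genes, on average 1.12 above the group mean in log2 signal. White day 4 array 51 was lowest for 4 of 7, on average -0.91. At white day 7, array 40 was lowest for 4 genes and array 39 for the other 3, on average -0.76 and -0.55, and their Gapdh ratios were 1.09 and 1.46. At brown day 4, array 06 was highest for 4 genes and array 09 lowest for 5. Plin2 varied least of the 7, from -0.54 to 0.38 around its group means, where Plin4 ran from -2.01 to 1.22.

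**Figure D4:**
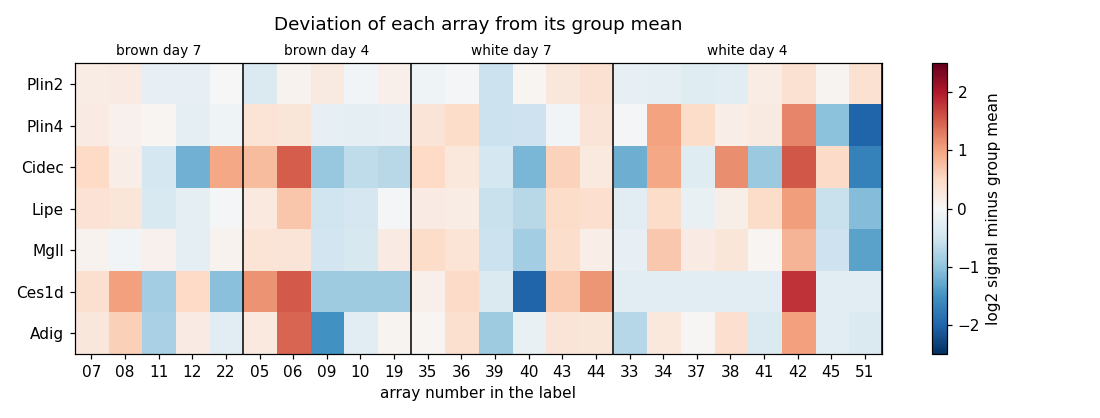
Log2 signal of the 7 genes on each array minus the mean of its group, with 1 column an array and the brightest probe set of each gene. Array 42 is above its group mean and array 39 below it for all 7 genes, and array 51 is below for every gene except Plin2.

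Most arrays fall into runs of neighbouring numbers that hold both days of 1 cell type, and white day 4 arrays 45 and 51 fall into no run with a day 7 array. What those numbers stand for is not stated. In each of 3 brown runs and each of 3 white runs, day 7 lay above day 4 for Plin2, Plin4, Cidec, Lipe, Adig, 97511_at of Mgll and 101539_f_at of Ces1d. The brown run of arrays 19 and 22 holds only 1 array per day, and its numbers are not adjacent. Adig differed by 1.87 to 2.86 within brown runs and 1.08 to 2.29 within white runs, Lipe by 0.96 to 1.24 and 0.85 to 1.58, and Plin4 by 0.91 to 1.20 and 1.06 to 1.81. Cidec ranged more widely, at 1.13 to 3.62 in brown runs and 0.92 to 2.66 in white runs, and the 3.62 came from arrays 19 and 22 alone. The dim Mgll probe set was higher at day 7 in 1 of 3 runs of each cell type. The smallest white change came in the run of arrays 37 to 40 for 6 of 7 genes, and the smallest brown change in the run of arrays 05 to 08 for 6 of 7. With the runs as a random block Plin4 passed in brown cells (adjusted p = 0.0270).

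Of 57 further genes of the pathway listed, 34 were on the array and 26 passed the filter. In brown cells 6 of the 26 were higher at day 7 and 1 lower, where 12.1% of all probe sets passed in either direction. In white cells 5 were higher and 1 lower, where 8.36% of all were higher and 10.6% lower. The median difference was 0.23 in brown and 0.25 in white cells. Between cell types, 5 were higher and 4 lower in brown cells at day 7 (12.8% and 12.3% of all), and 4 higher and 3 lower at day 4 (10.8% and 12.2% of all). No change differed between cell types past the threshold (0 of 26, where 0.214% of all did). No test was made of these counts against those shares.

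Of the 7 other lipases and partners tested, 2 rose in each cell type and 0 fell. Pnpla2, which takes the first fatty acid off triglyceride, rose by 1.29 ± 0.35 in brown cells (adjusted p = 0.0137) and 1.53 ± 0.29 in white cells (adjusted p = 0.000893). Its activator Abhd5 rose in brown cells (0.69 ± 0.22, adjusted p = 0.0398) and differed by 0.38 ± 0.19 in white cells (adjusted p = 0.169). Its inhibitor G0s2 differed by 0.01 in each, with adjusted p of 0.995 in brown and 0.985 in white cells. Lpl, which releases fatty acids from blood lipoproteins, rose in white cells (0.59 ± 0.15, adjusted p = 0.00567) and was lower in brown than in white cells at day 7 (-0.53 ± 0.16, adjusted p = 0.0183). The fatty acid carrier Fabp5 was higher in brown cells at day 7 (0.74 ± 0.19, adjusted p = 0.00432).

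Of the 7 other droplet genes tested, 2 rose and 1 fell in brown cells, and 1 rose and 1 fell in white cells. Cidea, the CIDE protein typical of brown fat, rose in brown cells (2.29 ± 0.63, adjusted p = 0.0165) and differed by -0.22 ± 0.54 in white cells (adjusted p = 0.813), but the changes did not differ past the threshold (2.51 ± 0.83, adjusted p = 0.286). It was higher in brown cells by 5.60 ± 0.60 at day 7 (adjusted p = 1.55e-07) and by 3.09 ± 0.57 at day 4 (adjusted p = 0.000270), where Cidec was lower in brown cells on both days. The brown Cidea signals were 159.6 to 1754 at day 7 and 27.3 to 378 at day 4, and the white ones were 6.78 to 15.8 at day 7, with 3 of 6 under the floor, and 4.29 to 39.8 at day 4, with 3 of 8 under it, so the sizes of these differences depend on the floor. Hsd17b11, a droplet-bound dehydrogenase, rose in brown (0.61 ± 0.20, adjusted p = 0.0437) and white cells (0.54 ± 0.17, adjusted p = 0.0278). Cavin1, a coat protein of caveolae, fell by 0.42 in brown cells (adjusted p = 0.0183) and fell by 0.31 in white cells (adjusted p = 0.0339). Cav1 and the droplet hydrolase Ldah passed only between cell types among these contrasts, and both were higher in brown cells on both days.

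Of 7 signalling genes 0 passed in brown cells and 1 in white cells, where Prkacb, a catalytic subunit of protein kinase A, rose by 0.56 ± 0.14 (adjusted p = 0.00800). Between cell types, 2 of the 7 were lower and 0 higher in brown cells at day 7 (12.3% and 12.8% of all probe sets). At day 4, 1 was lower and 0 higher (12.2% and 10.8% of all). Gnas, the stimulatory G protein, was lower in brown cells at day 7 (-0.37 ± 0.10, adjusted p = 0.00920) and at day 4 (-0.43 ± 0.10, adjusted p = 0.00195). Of 5 genes of product export and re-esterification, 2 rose in brown cells and 1 in white cells. Lpin1, which makes the diacylglycerol used for triglyceride, rose in both (1.59 ± 0.26, adjusted p = 0.000287 in brown cells; 1.23 ± 0.22, adjusted p = 0.000528 in white cells). Gpam, which starts glycerolipid synthesis, rose in brown cells (0.86 ± 0.27, adjusted p = 0.0333) and was lower in brown than in white cells at day 7 (-1.48 ± 0.25, adjusted p = 0.000101). Aqp7, the glycerol channel, was higher in brown cells at day 7 (0.89 ± 0.22, adjusted p = 0.00419) and at day 4 (1.11 ± 0.21, adjusted p = 0.000348). Of these 5 genes, 1 was higher and 1 lower in brown cells at day 7, and also at day 4.

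**Figure D5:**
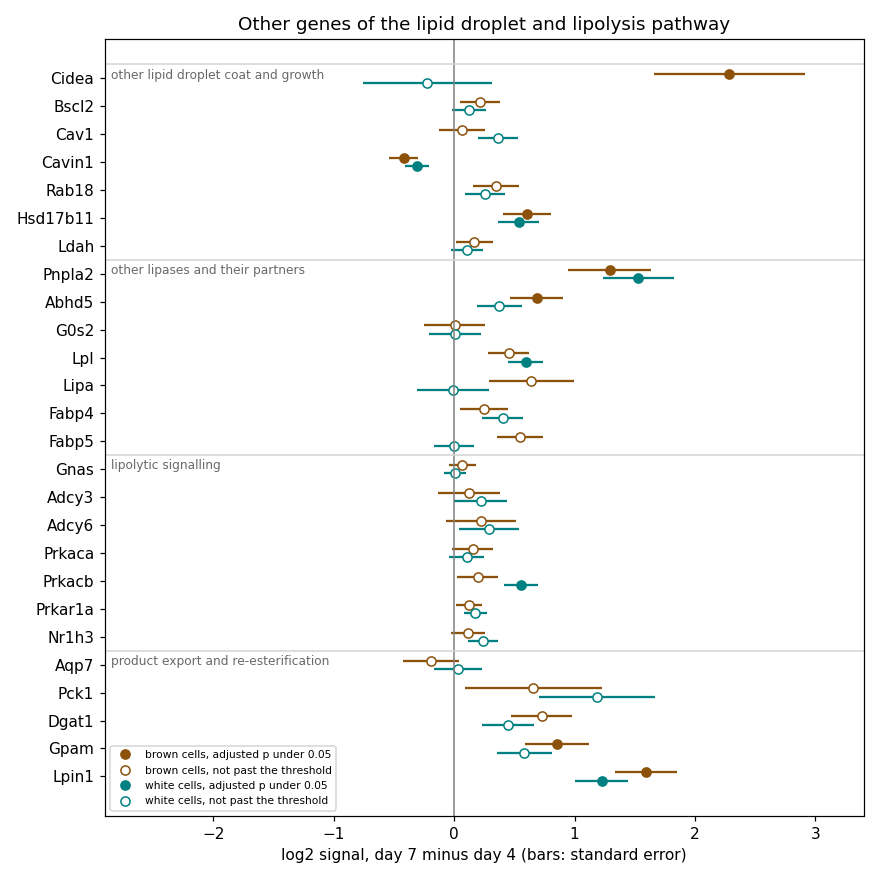
Difference between day 7 and day 4 in log2 signal, with standard errors, for the 26 tested genes of the 4 other pathway lists in brown and white cells. Filled points passed an adjusted p of 0.05. Pnpla2 and Lpin1 are filled to the right of 0 in both cell types, Cidea in brown cells only, and G0s2 lies at 0.

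Profiles over the 24 arrays were compared by the root mean square difference of log2 signal after centring each probe set on its mean, where a smaller value is more alike. Pnpla2 was among the 3 nearest genes for 4 of the 7: Plin4 (0.445), Lipe (0.298), Mgll (0.331) and Adig (0.496). The nearest to Plin4 was Nabp1 (0.364), and the adipokine gene Adipoq came next (0.419). Pcx, pyruvate carboxylase, was nearest to Mgll (0.266) and second to Lipe (0.362). Adig was nearest to Lrg1 (0.459) and Gpd1 (0.488), the glycerol phosphate dehydrogenase. Plin2, with its small range, was nearest to Aldoa (0.168), Ndufv1 (0.187) and Cyc1 (0.196). Cidec and Ces1d had nearest values of 0.771 (Orm1) and 0.717 (Gpd1). The measure is not scaled for spread, and each varied by a root mean square of 1.64 around its own mean, against 0.454 for Plin2. The median over all tested probe sets with 1 symbol, members left out, was 0.643 for Plin2, 1.09 for Plin4, 1.27 for Adig, 1.68 for Cidec and 1.71 for Ces1d. These arrays share the 4 groups, so likeness here describes the group pattern and the array deviations together.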

How the data were processed

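Expression was measured on 24 Affymetrix Murine Genome U74Av2 arrays, from 5 ug of total RNA each. The authors deposited linear signal intensities, 1 per probe set. Per the submitters' processing notes these came from MAS5, and no version of it was found in the labels or headers. The trimmed mean (2%) of each array was already near 150, and median signals were 41.9 to 58.9. Precision is limited by the number of arrays.

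Here each array was scaled to a trimmed mean of 150, signals below 8.21, the 20th percentile over all arrays, were raised to it, and log2 was taken. Probe sets above the 40th percentile of their array on at least 5 arrays were kept, without 66 control probe sets, which left 8397 with 1.56% of values at the floor. The symbols are those of the platform annotation and can be out of date: 10855 probe sets had 1 symbol, 396 several and 1237 none, and 10839 were matched to the reference gene table. The 4 group means were fitted with limma 3.58.1 (lmFit, eBayes with an intensity trend, 20 residual degrees of freedom) in R 4.3.3. Tests were two-sided with Benjamini-Hochberg adjustment over all 8397 probe sets within a contrast. The procedure was tested on simulated data. Gapdh ratios were compared by exact permutation tests.

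The members and gene lists were chosen with earlier results of these data known. All member probe sets are named, pathway genes that passed in a contrast may be named, and G0s2 was named after its values were seen. The 3 nearest profiles of a gene were taken among tested probe sets with 1 symbol. Alternatives were other floors, other filters, quantile normalization, array weights, no intensity trend, fits of only the compared arrays, leaving out white day 4 arrays 45 and 51, the Gapdh ratio as a covariate, runs of array numbers as a random block, and leaving out each array. Promoter windows were read from RefSeq's table for GRCm38.p6, and no protein sequence was used here.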

Additional observations from a re-analysis of the deposited data

Results flagged for a closer look

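Of 35 groups of array values of the members tested for an outlying array, 1 had one. White day 4 array 42 read 34.5 for Ces1d (101539_f_at), while the other 7 white day 4 arrays lay under the floor of 8.21. Those 7 were all set to the same floor value, so any single value above it would have been marked. The same array had the highest signal of its group for 7 of 7 genes. The white day 7 minus day 4 difference of this probe set was 2.14 in log2 signal with all arrays, and 1.92 to 2.54 when single arrays were left out.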

How the results depend on the processing

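The white day 7 against day 4 calls (6 of 9) and the absence of a called difference in change between cell types (0 of 9) held in number under every alternative, except that the Gapdh covariate left 0 of 9 in white cells. With that covariate 0 of 9 probe sets passed between cell types at day 7 (3 without it), 5 passed with only the compared arrays, and of the other pathway genes 0 passed in white cells (6 without it) and 1 between cell types at day 7 (9 without it). In brown cells 3 to 5 member probe sets passed when single arrays were left out, 3 without array 07, 08, 09 or 10, and 7 passed with array weights, with only the compared arrays, or without arrays 45 and 51. Other pathway genes called in brown cells numbered 7, 2 to 8 when single arrays were left out (2 without array 08 or 09), 4 with no filter and 4 with no intensity trend. At day 4, 12 differed between cell types without arrays 45 and 51, against 7. Over all probe sets, brown calls numbered 1012, 1665 with array weights and 672 to 1170 when single arrays were left out (672 without array 08). White calls numbered 1595, 1046 without arrays 45 and 51 and 37 with the covariate, and calls between cell types at day 7 numbered 2112 and 274 with it. Calls for a difference in change numbered 18, then 35 with the floor at the 40th percentile, 10 with no floor, 10 with no filter, 9 with the stricter filter, 45 with array weights, 11 with no intensity trend, 5 with the covariate, 37 with the block of runs, and 7 to 23 when single arrays were left out. The signs that turned all belonged to differences that had not passed. With the floor at the 40th percentile, Mgll by 97510_at was at 0.12 in white cells, -0.10 between cell types at day 7, 0.00152 at day 4 and -0.10 for the difference in change. The difference in change of Cidec was 0.27 with no floor and 0.00216 without arrays 45 and 51, and Plin4 between cell types at day 4 was -0.22 without them. With the covariate, Plin4 was at 0.17 and Mgll (97511_at) at 0.46 between cell types at day 7, and the differences in change were -0.13 for Plin2, 0.0263 for Lipe and 0.00551 for Mgll (97511_at). Leaving out single arrays gave -0.44 to 0.31 for Adig and -0.00243 to 0.46 for Plin4 between cell types at day 4, -0.44 to 0.18 for the difference in change of Cidec, -0.0515 to 0.32 at day 7 and -0.29 to 0.0823 in white cells for Mgll (97510_at), and -0.0236 to 0.0340 for the brown Gapdh ratio. The day 7 difference of Ces1d by 101539_f_at between cell types passed under the higher floor (adjusted p = 0.00381), quantile normalization (0.0496), array weights (0.00929) and only the compared arrays (0.0419), and without array 11, 22, 43 or 44. Causes were not tested. No paired analysis was possible because the groups share no array numbers, and runs of neighbouring numbers were fitted as a random block instead. Signal near background limits the dim probe sets, those of Ces1d, 97510_at of Mgll and Cidec at brown day 4.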
